A study of Mus musculus with 4 samples.

Results

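The subject is the change in whole-ganglion RNA after sciatic nerve injury in the mouse. RNA was measured in dorsal root ganglia, the paired clusters beside the spinal cord that hold the cell bodies of sensory neurons together with satellite glia, Schwann cells, blood vessels, fibroblasts and immune cells. The members are the bulk libraries, chosen by their labels, which are 2 of the 4 samples of the series. Both came from adult wild-type CD-1 mice with no immunoprecipitation, 1 from uninjured mice and 1 from mice whose sciatic nerve had been injured with forceps 72 hours earlier. How many animals or ganglia went into a library, and on which side, is not given in the sources used here. The other pair of samples, ribosome-bound RNA of sensory neurons from RPL22HA+/+;Advillin-Cre+ mice, is used only beside single results. Advillin-Cre switches the HA tag on in sensory neurons, so that pair is meant to leave out RNA of the other cells.

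Injury of a peripheral axon is known to reach the cell body as a retrograde signal and to start a programme of transcription there that accompanies regrowth. Transcription factors come first, followed by cytoskeletal and growth cone proteins, neuropeptides and factors that act on glia and macrophages, while many ion channel and receptor transcripts of the mature neuron are known to decline. Satellite glia and macrophages of the ganglion respond as well. In RNA of the whole ganglion, fewer cells of a type and less RNA per cell cannot be told apart.

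The deposited tables list transcripts by identifier and do not pair them with gene names, and no table used here does so. The results below are therefore about transcripts as listed. The lists of injury genes and cell type markers drawn up for this work could not be matched, and the labelled tissue could not be checked against its markers. No sequence is shown for the same reason. At most 2 identifiers are printed for each direction, and other transcripts are given by their rank.

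The uninjured library held 592935 estimated reads per column and the injured one 529332, with 22148 and 21093 transcripts above 0. Of these, 17434 were seen in both libraries, 4714 in the uninjured library alone and 3659 in the injured library alone. The most abundant transcript seen in a single library had 349.5 mean reads without injury and 172.8 after injury. Each library was deposited as 3 numbered columns that are not shown to be replicates. Their mean stands for the library. With 1 library in each group, no p-value is given and none of the differences can be set against the spread between animals. Intervals are exact 95% counting intervals of a ratio of reads and cover counting error only. A count of 0 allows 3 reads, which is 5.06 CPM (reads per 1000000 reads of the library) without injury and 5.67 after it.

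The comparison asked which transcripts of the whole ganglion differ after nerve injury. Transcripts entered with 20 or more mean reads summed over both libraries, which left 7739 transcripts holding 92.7% of uninjured and 92.9% of injured reads. A transcript was counted as higher or lower when its share of the library differed by 2-fold or more and its interval excluded no change. It is called steady where its 3 columns agreed in both libraries (chi-square against equal columns, p above 0.001), and 5979 of the 7739 transcripts, or 77.3%, were steady. This check compares columns within a library and does not use the injury contrast. A library with 0 reads in every column passes it by itself.

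Most steady transcripts lay close to no change. Their median log2 ratio of injured to uninjured reads was 0.00, and 90% of them lay between -0.60 and 0.63. Of the 5979, 97 were counted as higher after injury (1.62%) and 41 as lower (0.686%), together 2.31%. Without the 2-fold requirement the interval excluded no change for 329 steady transcripts, or 5.5%, with 213 higher and 116 lower. Over all 7739 transcripts, 403 were higher (5.21%) and 352 lower (4.55%), together 9.76%. The share counted was 35.1% among the 1760 transcripts that were not steady, with 306 higher and 311 lower.

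**Figure D1:**
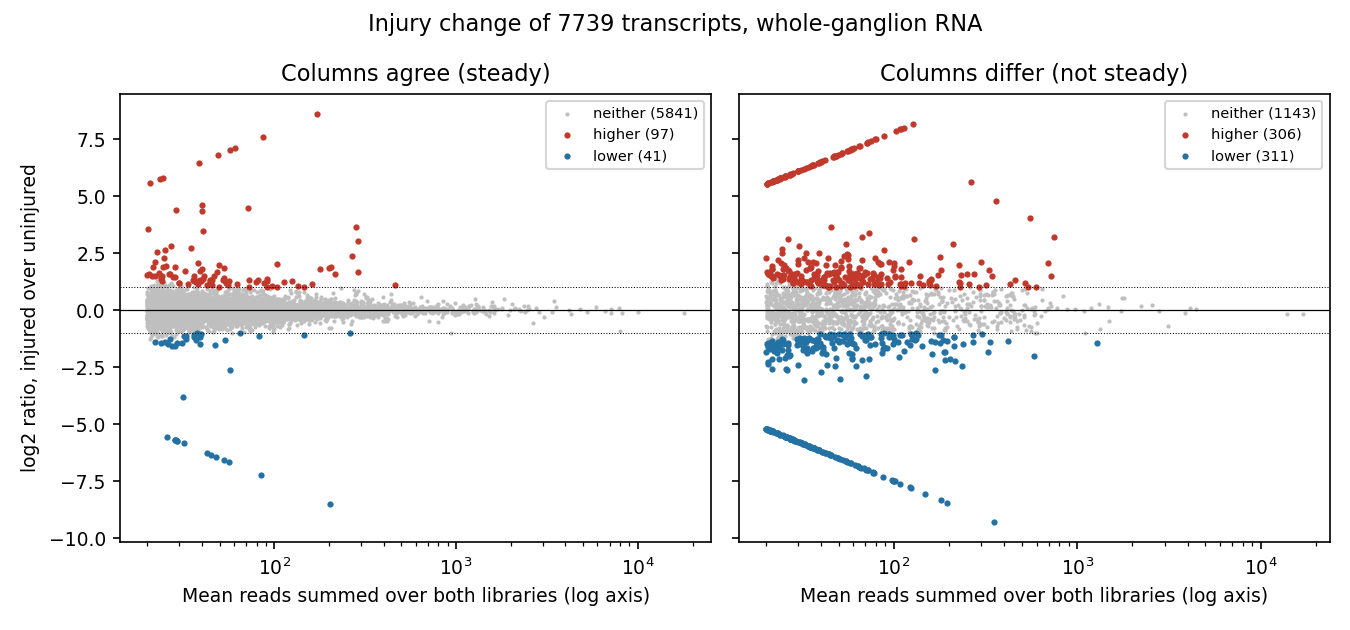
Each point is a transcript with 20 or more reads, placed by its mean reads summed over both libraries (log axis) and its log2 ratio of injured to uninjured reads, for steady transcripts (left) and the rest (right). Dotted lines mark 2-fold. The left panel holds 97 higher and 41 lower transcripts among 5979, the right panel 306 and 311 among 1760, and the slanted rows of points are transcripts with 0 reads in a library.

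Among steady transcripts the counted changes leaned upward, with 70.3% of the 138 higher after injury. The median log2 ratio was 1.51 for the higher and -1.47 for the lower transcripts. It was 1.55 and -1.55 with counts below 3 set to 3 reads and no added reads. Those 97 higher transcripts together took 2786 CPM without injury and 9811 after it. The 41 lower ones took 2901 and 672 CPM. Both sets were chosen by these same reads, so the rise and the fall of the sums follow from the choice. The lean was 62.8% with the reads of the 3 columns summed for these transcripts (115 higher, 68 lower). It was lost when summing also let transcripts in at 20 summed reads, with 328 higher and 353 lower. Among transcripts that were not steady, 49.6% of those counted were higher.

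The size of a detectable change depended on depth. With equal library totals, 20 reads have to split 15 to 5, a 3-fold difference, before the interval excludes no change, whereas 500 reads need a 1.20-fold difference. Among steady transcripts with 20 to 50 reads, 60 of 2815 were higher and 31 lower, and the middle 90% of log2 ratios spanned -0.73 to 0.73. With 100 to 200 reads, 10 of 888 were higher and 1 lower, and the span was -0.39 to 0.45. None of the 242 steady transcripts with 500 or more reads was counted in either direction, with a span of -0.21 to 0.28. Their intervals are narrow, and 49 of them (20.2%) excluded no change, compared with 3.45% at 20 to 50 reads. Depth by itself favours this order, since at 20 reads no change under 2-fold can exclude no change.

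**Figure D2:**
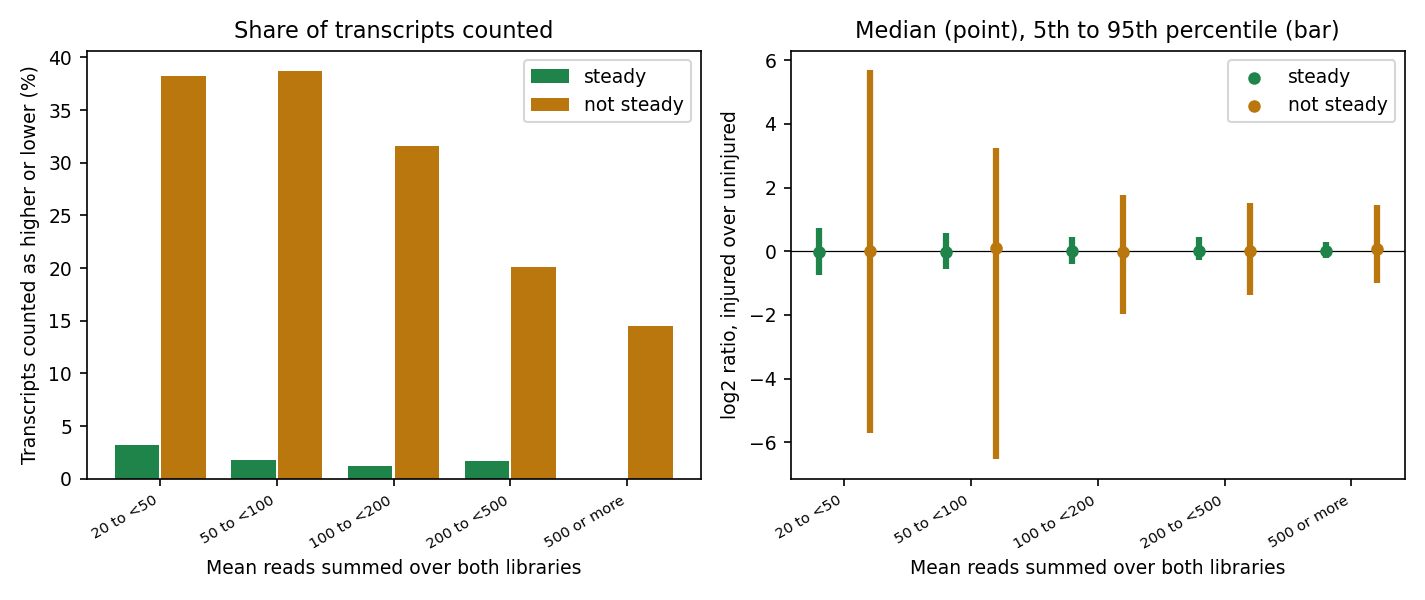
Left, percentage of transcripts counted as higher or lower in each class of mean reads summed over both libraries. Right, median log2 ratio of injured to uninjured reads (points) with the 5th to 95th percentile (bars). Steady transcripts fall from 3.23% counted at 20 to 50 reads to 0 at 500 or more, and the others from 38.2% to 14.5%.

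The most abundant transcripts were largely the same in both libraries. Of the 10 most abundant in the uninjured library, 9 were also among the 10 most abundant after injury. Of the 10, 0 were counted as changed, beside 9.76% of all 7739 transcripts and 0 of the 242 steady ones with 500 or more reads. With 10 transcripts, a count of 0 cannot be told apart from these shares. The most abundant had 9881 mean reads without injury and 8178 after it, a log2 ratio of -0.11. Of the 10, 7 stood within 13 consecutive places of the deposited list, a run noticed after the values were seen, and the ratio of each was below 0, from -0.90 to -0.06. Together these 7 took 7.51% of uninjured and 6.49% of injured reads.

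The exception in size was the fifth most abundant transcript. Its columns held 5319, 5385 and 5495 reads without injury and 2528, 2621 and 2610 after it. All injured columns lay far below the uninjured ones, and it ranked 11 in the injured library. Its log2 ratio was -0.90, just inside the 2-fold limit, so it is not counted as lower. Among steady transcripts with 500 or more reads a single one had a lower ratio, -0.99, with 634.3, 671 and 646.4 reads without injury and 319.8, 284.9 and 273.9 after it. The highest ratio in that class was 0.59, for a transcript with 273.1 mean reads without injury and 366.3 after it.

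The largest steady increases without a counterpart nearby were found in transcripts with few reads before injury, which a ranking by ratio favours by itself. Of the 3164 steady transcripts holding at least 50 reads, 47 were counted as changed, beside 138 of all 5979 steady ones (2.31%). These 47 split into 37 higher and 10 lower. The 15 highest and all 10 lowest were examined. Of the 15 highest, 4 had 0 reads in every uninjured column, and all 4 had a transcript within 20 places of the list that was counted in the opposite direction. The other 11 had log2 ratios from 1.57 to 4.48, and none of the 11 had such a counterpart. Of all 97 higher steady transcripts, 20 had one. The share for transcripts counted in neither direction was not taken at 20 places.

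ENSMUST00000110057.3 had the highest ratio of the 11. Its columns held 2, 5 and 2 reads without injury and 77, 66 and 64 after it. It was close to undetected in uninjured ganglia and clearly present after injury, at 5.06 and 130 CPM. Its log2 ratio was 4.48, with a counting interval of 3.08 to 7.0. In neuronal ribosome-bound RNA it had a mean of 0.7 reads without injury and 3.3 after it, too few for a comparison. The log2 ratio there was 3.10, with an interval of -0.67 to 8.69 that includes no change.

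ENSMUST00000043098.9 came next, with 16, 26 and 26 reads in the uninjured columns and 250, 274 and 253 in the injured ones. The lowest injured column was several times the highest uninjured one. Its share of the library was 12.8-fold higher, from 38.2 to 489 CPM, with a log2 ratio of 3.65 (3.04 to 4.34). In ribosome-bound RNA its columns held 0, 2 and 3 reads without injury and 12, 9 and 19 after it. That is a log2 ratio of 4.06 (1.95 to 7.28), but these reads too are below the minimum of 20 and too few for a comparison. The uninjured mean of 1.7 reads is under the 3 reads that a count of 0 allows. The median of -0.21 there covers only the 1866 transcripts that met the minimum.

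The third of the 11 had 34.8 mean reads without injury and 254.5 after it, a log2 ratio of 3.02 (2.51 to 3.58). The fourth went from 47.3 to 221.3 mean reads, a log2 ratio of 2.38 (1.94 to 2.88). The fifth went from 21.9 to 81.3 mean reads, a log2 ratio of 2.04 (1.35 to 2.80). The remaining 6 lay between 1.57 and 1.89, near 3-fold to 4-fold. Of the 11, 4 had 20 or more reads in ribosome-bound RNA. All 4 were counted as higher there as well, with log2 ratios of 1.51 to 2.38. Of all transcripts measured there, 11% were counted in either direction, and the share counted as higher alone is not given here. A rise after injury also helps a transcript reach 20 reads, so these 4 are a description. Library kit, strain and genotype differ between the assays.

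**Figure D3:**
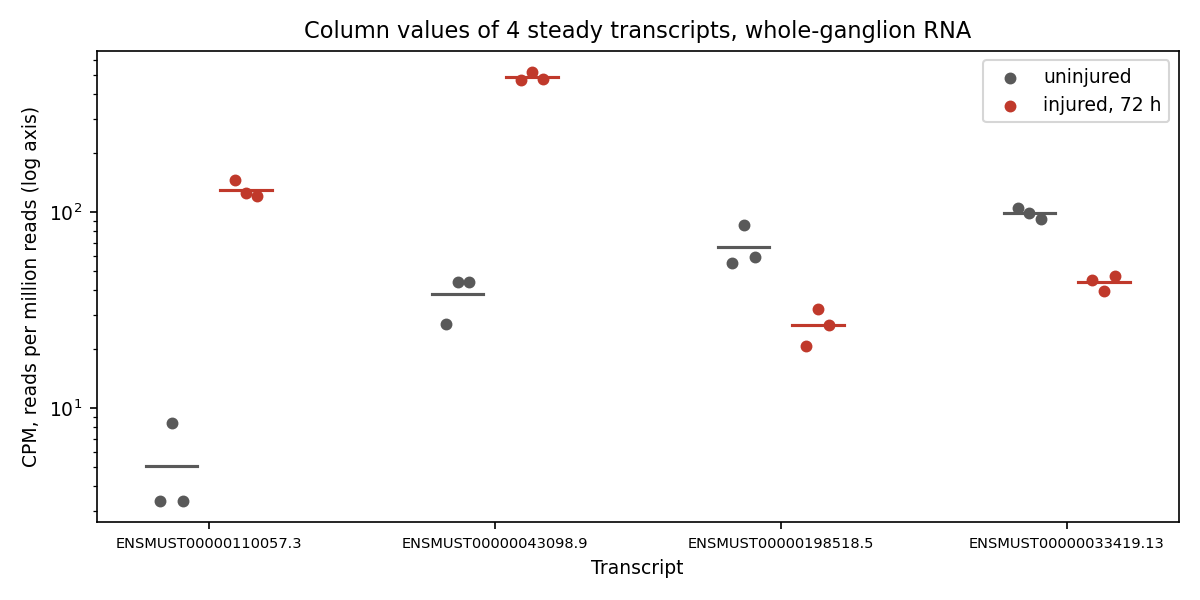
Levels in CPM on a log axis, in each of the 3 columns of the uninjured (grey) and injured (red) whole-ganglion library for 4 steady transcripts, with the column mean as a line. The columns do not overlap in any of the 4. After injury the first pair stood at 130 and 489 CPM, above the uninjured columns, and the second pair at 26.5 and 44.1, below them.

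Of the 10 lowest steady transcripts with 50 or more reads, 4 had 0 reads after injury and an opposite counterpart within 20 places, and the next had a log2 ratio of -2.63 and also such a counterpart. The other 5 had log2 ratios from -1.30 to -1.0. Of all 41 lower steady transcripts, 15 had a counterpart within 20 places.

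ENSMUST00000198518.5 had 32.7, 50.9 and 35 reads in the uninjured columns and 11, 17 and 14 in the injured ones. Its lowest uninjured column was about double its highest injured one, and its log2 ratio was -1.30 (-2.34 to -0.44), a 2.52-fold lower share. ENSMUST00000033419.13 had 62, 59 and 55 reads without injury and 24, 21 and 25 after it. These columns were tight, with a log2 ratio of -1.15 (-1.96 to -0.48), a 2.24-fold lower share. In ribosome-bound RNA both had fewer than 20 reads, with intervals of -6.23 to 2.72 and -3.72 to 1.97 that include no change. The most abundant of the other 3 had 181 mean reads without injury and 79.6 after it, a log2 ratio of -1.02 (-1.41 to -0.63).

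Many counted changes were matched by an opposite change close by in the deposited list. Of the 617 transcripts counted as changed but not steady, 43.6% had a transcript counted in the opposite direction within 10 places. Of the 138 steady ones, 15.9% did, 11 among the higher and 11 among the lower. Among transcripts counted in neither direction, 18.4% of those that were not steady had a higher transcript within 10 places and 19.2% a lower one. Among steady ones counted in neither direction these shares were 6.95% and 5.53%. Within 20 places, 35 of the 138 had an opposite, 20 higher and 15 lower. Without these, 77 higher and 26 lower steady transcripts were left. The shares for transcripts counted in neither direction were taken at 10 places only, and a wider window finds at least as many.

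Each of the 35 was also summed with its nearest opposite transcript, which gave 26 distinct pairs, since 9 pairs had both members among the 35. The summed ratio was within 2-fold for 23 of the 26 pairs, and its interval included no change for 18. A partner chosen for its opposite change draws the sum toward no change by itself, so these sums are a description. An example is the transcript with the second highest ratio, which had 0 reads in every uninjured column and a mean of 86.4 after injury. The counting interval of its log2 ratio had a lower end of 4.68 and no upper end. A transcript 2 places away went from 84.3 mean reads to 0 in every injured column. The interval of that log2 ratio had an upper end of -4.31 and no lower end. The sum of this pair was 84.3 and 86.4 reads, a log2 ratio of 0.20 (-0.25 to 0.65). Each of the pair was steady, so such opposite neighbours also occurred where the columns that held reads agreed. The library with 0 reads in every column passes the check by itself. Of the 138 steady transcripts counted, 9 higher ones had 0 reads without injury and 14 lower ones had 0 after it. In the 9 pairs with both members steady, all 9 sums were within 2-fold. Whether such neighbours are transcripts of the same gene was not tested, nor was the assignment of reads between them.

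**Figure D4:**
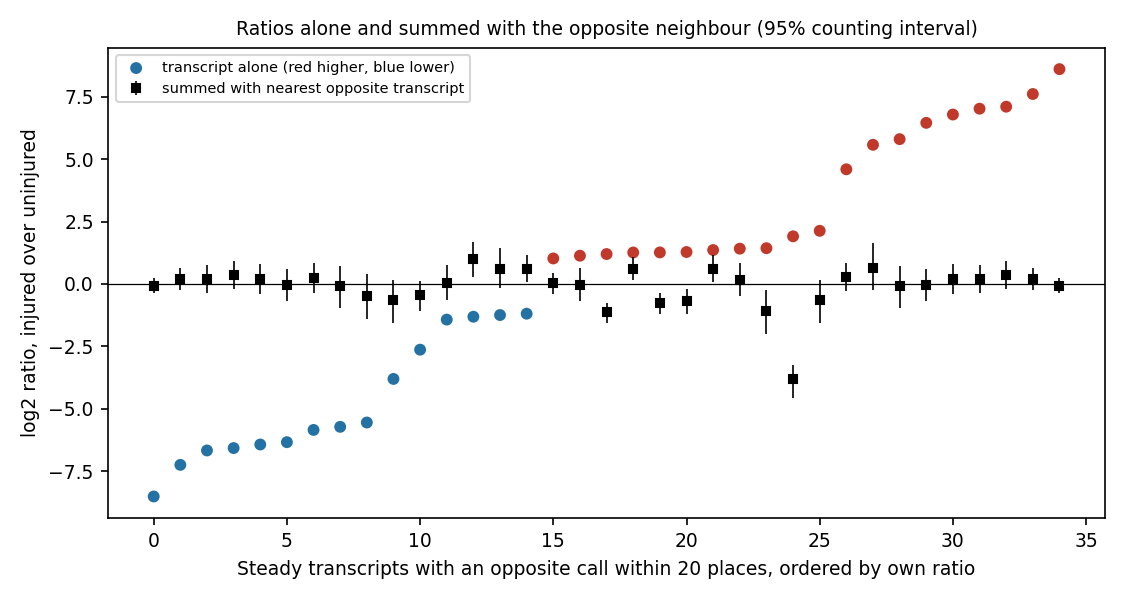
Log2 ratio of injured to uninjured reads for the 35 steady transcripts that had an opposite transcript within 20 places of the list, alone (circles) and summed with the nearest opposite transcript (squares with 95% counting intervals). The 9 pairs with both members among the 35 show the same sum at both places. Of the 26 distinct sums, 23 lie within 2-fold.

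Transcripts that were not steady gave ratios with a wider spread. Of the 617 counted, 538 (87.2%) had a column with 0 reads and another with 20 or more in the same library. The share was 74.3% among those counted in neither direction. The higher transcript with the most reads had 0, 0 and 241 reads without injury and 971.1, 203.3 and 835.2 after it. Its columns overlapped, and its log2 ratio of 3.22 has a counting interval of 2.89 to 3.58 that takes no account of this. The lower transcript with the most reads had 996.3, 925.6 and 965.8 reads without injury and 0, 545.2 and 405.6 after it. Here the columns did not overlap, with a log2 ratio of -1.44 (-1.63 to -1.25), but those of the injured library ranged from 0 to 545.2. Of all 755 transcripts counted as changed, the columns of the libraries did not overlap in the direction of the change for 241. Of the 138 steady ones this held for 136, which the choice of agreeing columns and a 2-fold difference nearly fixes. Counted or not, 1566 of all 7739 transcripts (20.2%) had columns that did not overlap in either direction. For steady transcripts it was 1404 of 5979 (23.5%).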

How the data were processed

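Bulk libraries were made from total RNA with a direct RNA sequencing kit, per the labels' protocols. The submitters' processing notes name minimap2 and Salmon with the builds GRCm39 and mm39. Neither their versions and settings nor what the 3 columns stand for is stated there. The authors deposited, per the file headers, estimated counts and TPM for 116912 transcripts. TPM was the count times a constant (within 0.0499% for 1 read or more), so it holds no transcript length and was not used further.

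Column means were divided by library totals. Log2 ratios used 0.5 added reads, and exact conditional binomial 95% intervals used counts rounded to whole numbers (scipy 1.17.1). Fold values printed beside a log2 ratio used no added reads. Scripts were tested on simulated data. Transcripts were not summed to genes, since no table used here pairs them. The rule for named transcripts took, among steady ones counted as changed with 50 or more reads, the 15 highest and 15 lowest ratios (10 were available). It also took the 3 with the most reads in each direction that were not steady, and the most abundant. The 4 identifiers printed are the highest and lowest 2 of these with 3 or more reads in both libraries and no opposite call within 20 places, a choice made after the values were seen. Members and lists were chosen with earlier results of these data known. Alternatives changed the scaling (edgeR 4.0.16 TMM, DESeq2 1.42.0 size factors), pseudocount, thresholds and use of columns.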

Additional observations from a re-analysis of the deposited data

How the results depend on the processing

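The 4 printed transcripts kept their direction and stayed counted under each of the 7 alternatives that could move their values (scaling, pseudocount, left-out or summed columns). Their log2 ratios ranged from 3.37 to 4.99 (ENSMUST00000110057.3), 3.42 to 3.77 (ENSMUST00000043098.9), -1.38 to -1.07 (ENSMUST00000198518.5) and -1.24 to -1.0 (ENSMUST00000033419.13). These 4 were chosen for agreeing columns and for high or low ratios, which favours this outcome. For all transcripts (755 counted), the count was 316 with a minimum of 50 reads, 1582 without one, 2071 with summed columns and 326 at a 4-fold threshold. Leaving out transcripts with an opposite neighbour gave 464 within 10 places and 418 within 20, and columns that do not overlap gave 241 (157 higher, 84 lower). The columns of a library are 1 sample, so a fit that treats them as replicates does not test injury. Such fits, with no limit on fold, gave 65 (41 higher, 24 lower) by edgeR's quasi-likelihood test and 261 (176 higher, 85 lower) by DESeq2 at an adjusted p of 0.05. For steady transcripts (138), a minimum of 50 reads gave 47 (37 higher, 10 lower), no minimum 314 (185, 129), summed columns 681 (328, 353), a 1.5-fold threshold 229 and a 4-fold threshold 42. Stricter minimums and thresholds, and the filters, give fewer by construction, and summing triples the reads. TMM scaling and size factors gave 138 steady transcripts each. Leaving out a column gave 154 to 183 steady transcripts and 887 to 918 of all. Filters on neighbours, on overlap, and the 60-read minimum for summed columns were chosen after seeing the data. The planned sums per gene were not run. No paired analysis was possible because each group has 1 sample. Depth limits detection to 3-fold at 20 reads.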
